A study of Homo sapiens with 4 samples.

Results

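The 39 genes described here are those of the unfolded protein response and of the ATF4 stress programme, chosen by name from a list of symbols matched to the gene identifiers of the count table, of 58233 genes listed there. All 39 were found, and all 39 had enough counts to be tested, among 13179 genes tested. RNA-seq was done on MCF10AT cells, derived from the breast epithelial line MCF10A and made tumorigenic by mutant HRAS, in 2 libraries labelled Bromo+/- and 2 libraries labelled Non-target control. Both groups grew in DMEM/F12 with donor horse serum, EGF, insulin, hydrocortisone, cholera toxin and antibiotics. The protocols describe shRNAs delivered by lentivirus with puromycin selection and the design text describes EP300 shRNAs in triplicate, whereas the samples carry only the genotype Bromo+/- or Non-target control. What Bromo+/- alters, which shRNA a library carries and whether a group is 1 clone are not stated in the sources used here.

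The unfolded protein response is the reaction of the endoplasmic reticulum (ER) to a surplus of unfolded protein. Its sensors are the membrane proteins ATF6, IRE1 (gene ERN1) and PERK (gene EIF2AK3). ATF6 is cut to release a transcription factor, IRE1 splices the XBP1 messenger RNA, and PERK phosphorylates the translation factor eIF2, which favours translation of the transcription factor ATF4. Other eIF2 kinases answer to lack of amino acids, heme or to double-stranded RNA, so ATF4 also runs a programme of amino acid synthesis, amino acid uptake and tRNA charging that does not depend on the ER. In mammary epithelium, chaperones of the ER serve the folding of secreted and membrane proteins, and several ATF4 targets feed the growth of breast cancer cells. The members were therefore split by role into 18 genes of the ER side and 21 genes of the ATF4 side.

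Short promoter elements are known from the study of these genes, and the windows below are printed because each holds such an element before the annotated start of a member with a value described below. ERSE, the ER stress response element bound by ATF6 with NF-Y, was searched as CCAAT and CCACG with 9 bases between them. ERSE-II was searched as ATTGG and CCACG with 1 base between them, UPRE, the element of XBP1, as TGACGTGG, and CARE, the composite site of ATF4 with C/EBP factors, as TGATGNAA. Both strands were searched in the RefSeq windows (GRCh38.p14) of 250 bases before and 50 bases from the start on, and no member held overlapping matches of different motifs except HYOU1 (ERSE-II with UPRE). The windows below are the 250 bases before the start, 5′ to 3′ on the strand of the gene, with the matched letters in capitals. They hold an ERSE in HSPA5 and XBP1, an ERSE-II in SDF2L1 and a CARE in CHAC1 and ASNS. XBP1 and ASNS have 2 windows each, from different annotated starts, and only the printed one held a match.
HSPA5 (chr9:125241344-125241593, minus strand): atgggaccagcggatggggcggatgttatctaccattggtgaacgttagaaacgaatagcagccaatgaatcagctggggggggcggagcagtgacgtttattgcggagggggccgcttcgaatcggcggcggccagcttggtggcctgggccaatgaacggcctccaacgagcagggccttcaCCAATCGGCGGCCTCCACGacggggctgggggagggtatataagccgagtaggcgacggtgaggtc
XBP1 (chr22:28800570-28800819, minus strand): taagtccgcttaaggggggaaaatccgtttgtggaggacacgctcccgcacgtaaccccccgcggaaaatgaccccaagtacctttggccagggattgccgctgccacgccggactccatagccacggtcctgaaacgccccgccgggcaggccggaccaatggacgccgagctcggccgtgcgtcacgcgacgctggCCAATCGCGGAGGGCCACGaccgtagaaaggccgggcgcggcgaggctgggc
SDF2L1 (chr22:21642052-21642301, plus strand): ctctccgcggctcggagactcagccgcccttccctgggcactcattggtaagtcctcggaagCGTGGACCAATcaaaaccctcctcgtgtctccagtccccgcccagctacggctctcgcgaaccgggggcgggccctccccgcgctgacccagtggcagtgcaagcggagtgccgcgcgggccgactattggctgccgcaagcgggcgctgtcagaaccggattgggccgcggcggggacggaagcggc
CHAC1 (chr15:40953221-40953470, plus strand): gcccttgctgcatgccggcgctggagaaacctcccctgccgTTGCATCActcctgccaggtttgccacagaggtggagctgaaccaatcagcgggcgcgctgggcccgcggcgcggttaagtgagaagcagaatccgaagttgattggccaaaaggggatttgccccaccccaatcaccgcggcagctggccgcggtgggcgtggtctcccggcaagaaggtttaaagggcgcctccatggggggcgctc
ASNS (chr7:97872409-97872658, minus strand): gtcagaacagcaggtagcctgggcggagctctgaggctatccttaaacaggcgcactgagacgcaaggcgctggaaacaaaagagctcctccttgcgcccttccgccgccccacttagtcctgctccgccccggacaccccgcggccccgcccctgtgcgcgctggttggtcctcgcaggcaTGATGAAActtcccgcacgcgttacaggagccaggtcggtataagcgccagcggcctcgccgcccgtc

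Windows were found for 36 of the 39 members, and not for PDIA3, PSPH and SHMT2. ERSE was present in the windows of 6 of these 36 members (16.7%), HSPA5, HSP90B1, PDIA6, CALR, CANX and XBP1, and in those of 0.0916% of 27303 genes. ERSE-II was present in HERPUD1, HYOU1 and SDF2L1 (8.33% of members) and in 0.0696% of genes, and UPRE in HYOU1 and CARS1 (5.56%) and in 0.927% of genes. CARE was present in 8 members (22.2%), ASNS, CHAC1, CEBPG, HERPUD1, SLC1A5, SLC3A2, SLC7A1 and CARS1, and in 4.46% of genes. The CARE of ASNS began 68 bases before the start, that of CHAC1 209 bases before it, and the ERSE of HSPA5 66 bases before it. HSPA5 and ASNS are among the genes on which ERSE and CARE were first described, so a match in such members is no independent finding.

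The libraries labelled Bromo+/- held 11975396 and 10953756 counts and the control libraries 10835237 and 11884715, of which the 39 members took 1.14% to 1.16% and 1.22% to 1.23%. EP300, which the series title gives as knocked down, did not fall in either library labelled Bromo+/-. It was at 121 and 126 scaled CPM there (counts relative to the total, scaled between libraries) and at 106 and 111 scaled CPM in the controls (log2 fold change 0.19, SE 0.06, adjusted p = 0.00701, edgeR). Its adjusted p missed the threshold with the DESeq2 Wald test and without either control replicate (range over the alternatives 0.000108 to 0.162). What Bromo+/- alters is not stated, so the level of EP300 cannot show whether the labels are right or wrong. All directions given here depend on the labels being right and on the reading of the column names. In bulk RNA, fewer cells of a type and less RNA per cell cannot be told apart. Over all genes tested, 53.5% passed an adjusted p of 0.05 (edgeR quasi-likelihood test), 26.4% higher and 27.1% lower, and with scaling by library size alone the split was 4430 higher and 2800 lower. All 12 markers of mammary epithelium on a list were lower in both libraries labelled Bromo+/-, where their summed level was 1832.9 to 1927.3 CPM, against 10485.1 to 10790.9 CPM in the controls, and KRT14 had no count in either of them. Of 9 tested mesenchymal markers 7 were higher (summed level of 10 listed markers 5854.9 to 6024.0 against 1860.9 to 1974.1 CPM, SPARC at 0 in the controls). Of 7 listed fibroblast markers DCN and POSTN were higher, FAP was lower, and LUM was at 0 in all libraries (summed level 132 to 133 against 39.2 to 40.1 CPM). Of 8 leukocyte markers (6.54 to 7.73 against 25.4 to 25.5 CPM) 3 were lower and CD3E was at 0, and of 7 endothelial markers (19.3 to 23.6 against 25.3 to 27.6 CPM) 2 were higher, 1 was lower and VWF was at 0. Without ROBO4 the endothelial sum was 15.1 to 18.1 against 11.7 to 12.3 CPM in the controls. Of 12 immediate early and handling genes 5 were higher and 5 lower (624 to 636 against 544 to 554 CPM), and without DUSP1 their summed level was 400 to 409 against 506 to 512 CPM in the controls. The part of these shifts in the values below was not tested.

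Of the 39 members, 24 passed the threshold (61.5%, against 53.5% of all genes tested), 8 higher and 16 lower under the label Bromo+/- (26.4% and 27.1% of all genes tested). The median log2 fold change was -0.12 over the members and 0.01 over all genes tested. The median size of the change, whatever its sign, was 0.22 over the members and 0.28 over all genes. A call with an absolute log2 fold change of at least 0.5 was reached by 7 members, against 28.0% of all genes tested. These 7 were the transporter subunits SLC7A5 and SLC3A2, the stress regulators TRIB3 and CHAC1, the factor XBP1, the ER cochaperone SDF2L1 and, as the one that rose, the serine enzyme PHGDH. Of the 24 calls, 15 held under each of 12 alternatives to the processing.

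**Figure D1:**
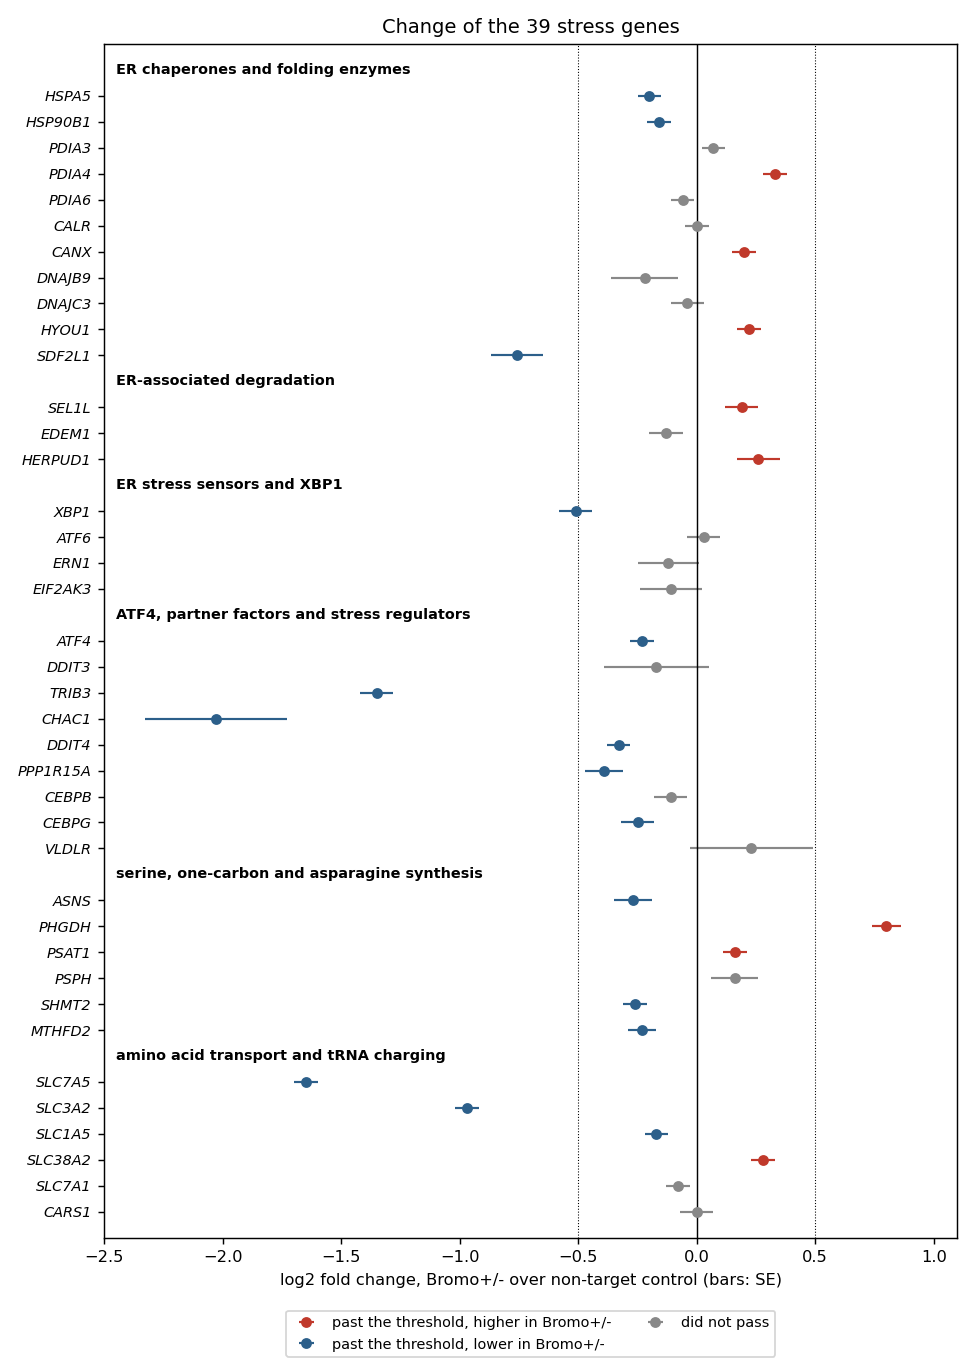
Log2 fold change of the 39 members, libraries labelled Bromo+/- over Non-target control, by role from top to bottom. Points are the fitted values, bars the standard error derived from the test statistic, and dotted lines mark 0.5 on either side. The values run from -2.03 (CHAC1) to 0.80 (PHGDH), and those of most ER chaperones lie between the dotted lines.

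Of the 11 ER chaperones and folding enzymes 3 rose, 3 fell and 5 did not pass, with a median log2 fold change of -0.04. The share that passed, 54.5%, was near the 53.5% of all genes tested, and the median size of the change was 0.20, against 0.28 over all genes. HSPA5 (chr9:125234853-125241330, GRCh38, as all gene coordinates here) encodes BiP, the HSP70 of the ER lumen that also holds the sensors inactive. It was at 1137.0 and 1156.7 scaled CPM in both libraries labelled Bromo+/- and at 1363.8 and 1276.4 scaled CPM in the controls, so that the groups did not overlap (log2 fold change -0.20, SE 0.05, adjusted p = 0.00027, edgeR). The adjusted p lay between 3.5e-05 and 0.0873 over the alternatives, the highest without control replicate 1. HSP90B1, the HSP90 of the ER, was at 1534.9 and 1666.2 scaled CPM against 1813.6 and 1762.3 in the controls (-0.16, SE 0.05, adjusted p = 0.00482), and this call ended without Bromo+/- replicate 1 or control replicate 1 and with library size or upper quartile scaling (adjusted p between 0.000132 and 0.18 over the alternatives).

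SDF2L1, a cochaperone of BiP, was the chaperone with the largest change. It was at 17.2 and 14.3 scaled CPM in both libraries labelled Bromo+/- and at 26.1 and 27.6 scaled CPM in the controls, without overlap (log2 fold change -0.76, SE 0.11, adjusted p = 1.61e-10). The gene lies at chr22:21642261-21644298. Its ERSE-II is in the window printed above, as the ERSE of HSPA5 is.

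Among the lectin chaperones and disulfide isomerases CANX and PDIA4 rose. CANX, calnexin, the membrane-bound lectin chaperone of glycoproteins, rose to 1766.8 and 1838.3 scaled CPM, against 1565.6 and 1566.2 in the controls (log2 fold change 0.20, SE 0.05, adjusted p = 0.000272). CALR, its soluble counterpart calreticulin, averaged 780 ± 7.31 and 780 ± 29 scaled CPM (SD, n = 2 each), with overlapping libraries. PDIA4, a disulfide isomerase with several thioredoxin domains, rose by 0.33 (SE 0.05, adjusted p = 5.75e-09) and HYOU1, a large HSP70-like exchange factor for BiP, by 0.22 (SE 0.05, adjusted p = 0.000157). The call for HYOU1 ended without control replicate 1 (adjusted p between 2.85e-07 and 0.0589 over the alternatives).

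The other folding genes did not pass. The isomerase PDIA3, which works with calnexin and calreticulin on glycoproteins, had a log2 fold change of 0.07 (SE 0.05), and the isomerase PDIA6 one of -0.06 (SE 0.05). The J-domain cochaperones of BiP were at -0.04 (DNAJC3, SE 0.07) and -0.22 (DNAJB9, SE 0.14). DNAJB9, also a direct target of spliced XBP1, had only 117 to 169 counts per library, its exons overlap THAP5 and PNPLA8 on the opposite strand, and it passed without control replicate 1 (log2 fold change -0.39, adjusted p = 0.0458, the lowest of its alternatives, which reached 0.974). With upper quartile or library size scaling PDIA3 joined the higher genes and HSP90B1 left the lower ones, a split of 4 higher and 2 lower.

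Genes of ER-associated degradation clear misfolded proteins from the ER, and of 3 such genes 2 rose. Over all genes tested 53.5% passed and 26.4% were higher, and 3 genes are too few to set against these shares. SEL1L, the adaptor of the HRD1 ubiquitin ligase, rose by 0.19 (SE 0.07, adjusted p = 0.0119), and HERPUD1, which scaffolds that complex, by 0.26 on the log2 scale (SE 0.09, adjusted p = 0.00763). EDEM1, a lectin that hands over glycoproteins, did not pass at -0.13 (SE 0.07). Both calls ended with the DESeq2 Wald test. That for SEL1L also ended without Bromo+/- replicate 2 or control replicate 1 (adjusted p between 0.000322 and 0.433 over the alternatives), and that for HERPUD1 without Bromo+/- replicate 1 or either control replicate (between 0.000405 and 0.205).

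Among the 4 genes of the sensors and their factor XBP1, XBP1 alone passed (25%, against 53.5% of all genes tested). These genes are too few to set against that share. XBP1 (chr22:28794555-28800597) was at 69.8 and 64.5 scaled CPM in both libraries labelled Bromo+/- and at 100 and 91.1 scaled CPM in the controls, without overlap (log2 fold change -0.51, SE 0.07, adjusted p = 2.13e-11). EIF2AK3, the gene of PERK, was at 14.6 and 11.8 scaled CPM against 14.6 and 14.1 in the controls (-0.11, SE 0.13), with overlapping groups. ERN1, the gene of IRE1, had a log2 fold change of -0.12 (SE 0.13) and ATF6 one of 0.03 (SE 0.07). EIF2AK3 and ERN1 had only 134 to 183 counts per library. Counts per gene do not separate spliced from unspliced XBP1, and messenger RNA levels of the sensors do not show their activity.

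**Figure D2:**
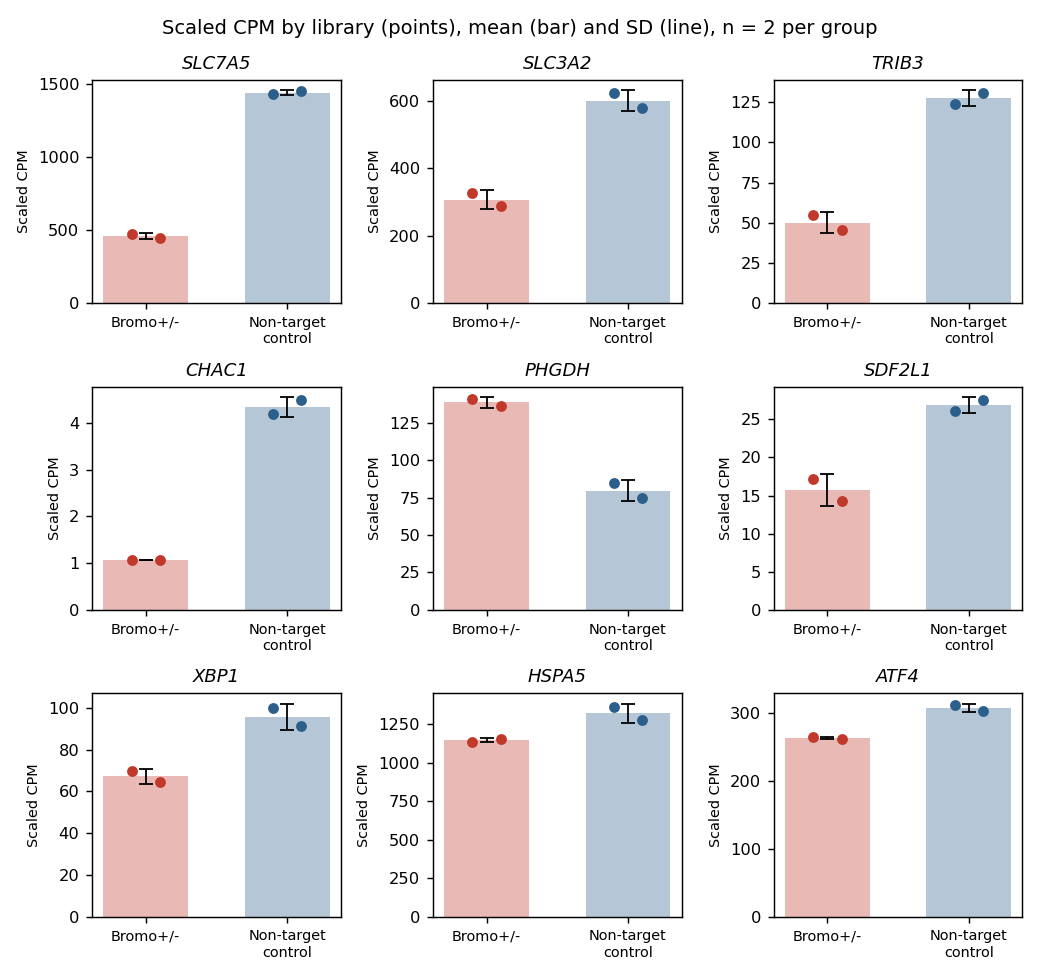
Scaled CPM of 9 members in each library (points), with the group mean (bars, from 0) and SD (lines), libraries labelled Bromo+/- on the left of each panel and Non-target control on the right, n = 2 per group. SLC7A5 averaged 461 against 1443.8 CPM and PHGDH 139 against 79.7 CPM, while HSPA5 and ATF4 lay much closer together.

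On the ATF4 side, the transcription factor and several of its feedback genes were lower. Of the 9 genes of ATF4, its partners and stress regulators, 6 fell, none rose and 3 did not pass, with a median log2 fold change of -0.25 (66.7% passed, against 53.5% of all genes tested). ATF4 itself was at 265 and 262 scaled CPM in both libraries labelled Bromo+/- and at 312 and 304 scaled CPM in the controls (log2 fold change -0.23, SE 0.05, adjusted p = 8.1e-05, edgeR). ATF4 is controlled mainly at translation, which these counts do not measure.

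TRIB3 (chr20:362835-397559), a pseudokinase induced by ATF4 with CHOP that holds back both, was the regulator with the smallest p. It was at 54.6 and 45.4 scaled CPM in both libraries labelled Bromo+/- and at 124 and 131 scaled CPM in the controls (log2 fold change -1.35, SE 0.07, adjusted p = 4.75e-48). CHAC1 (chr15:40952962-40956519), which degrades glutathione and is a target of ATF4, was covered by 13 and 12 reads in libraries labelled Bromo+/- and by 44 and 52 reads in the controls, or 1.06 and 1.06 against 4.19 and 4.49 scaled CPM (-2.03, SE 0.30, adjusted p = 6.46e-10). Neither gene had overlapping groups, and both calls held under all 12 alternatives. CHAC1 was the lowest but 2 of the members per exon length in the controls, and its fold change rests on few reads.

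Smaller falls were seen for the other regulators. PPP1R15A, the gene of GADD34, which directs a phosphatase to eIF2 and so ends the response, fell by 0.39 (SE 0.08, adjusted p = 1.77e-06). DDIT4, the gene of REDD1, an inhibitor of mTORC1, fell by 0.33 (SE 0.05, adjusted p = 9.44e-09), and CEBPG, a dimer partner of ATF4, by 0.25 (SE 0.07, adjusted p = 0.00215). The call for CEBPG ended with the DESeq2 Wald test and without Bromo+/- replicate 1 (adjusted p between 0.00012 and 0.0618 over the alternatives).

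DDIT3, which encodes CHOP, the factor of the late response that promotes cell death, was at 4.39 and 3.27 scaled CPM in both libraries labelled Bromo+/- and at 4.48 and 4.23 in the controls, with overlap (log2 fold change -0.17, SE 0.22). With 37 to 54 counts per library a change of this size was not detectable. Its exons share 355 bases with MARS1 on the opposite strand, and the strand setting of the counting is not given, so its level is uncertain. CEBPB, another dimer partner of ATF4, did not pass (-0.11, SE 0.07), but did without Bromo+/- replicate 1 (-0.21, adjusted p = 0.0215, the lowest of its alternatives, which reached 0.797). VLDLR, a lipoprotein receptor that ATF4 can induce, did not pass either (0.23, SE 0.26), with 24 to 38 counts per library.

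Amino acid synthesis was split. Serine is made from a glycolytic intermediate by PHGDH, PSAT1 and PSPH in turn, and the mitochondrial enzymes SHMT2 and MTHFD2 then draw one-carbon units from it. PHGDH (chr1:119659798-119744215), the first step, was at 141 and 136 scaled CPM in both libraries labelled Bromo+/- and at 84.7 and 74.7 scaled CPM in the controls (log2 fold change 0.80, SE 0.06, adjusted p = 1.66e-26), and was the member with the largest rise.

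The following steps moved less. PSAT1 rose by 0.16 (SE 0.05, adjusted p = 0.0077), a call that ended with the DESeq2 Wald test and without either control replicate (adjusted p between 4.6e-05 and 0.171 over the alternatives). PSPH was at 0.16 (SE 0.10) and did not pass, though it did with upper quartile or library size scaling (adjusted p = 0.0451 and 0.0251, the highest over the alternatives being 0.588). SHMT2 fell by 0.26 (SE 0.05, adjusted p = 5.65e-06) and MTHFD2 by 0.23 (SE 0.06, adjusted p = 0.000191). Per exon length PSAT1 remained the most abundant of the 3 serine enzymes in every library, and the ratio of PHGDH to PSAT1 in scaled RPKM was 0.234 and 0.219 in both libraries labelled Bromo+/-, against 0.157 and 0.134 in the controls.

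ASNS, asparagine synthetase, on which the amino acid response element was characterised, fell by 0.27 on the log2 scale (SE 0.08). It was at 38.2 and 38.6 scaled CPM in both libraries labelled Bromo+/- and at 45.5 and 47.3 scaled CPM in the controls (adjusted p = 0.00245). This call ended with the DESeq2 Wald test and without control replicate 2 (adjusted p between 0.00197 and 0.08 over the alternatives).

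Among the members, the smallest p-value was that of a chain of the transporter LAT1-4F2hc, which imports leucine and other large neutral amino acids in exchange for glutamine. SLC7A5 (chr16:87830023-87869488), its light chain LAT1, was at 477 and 446 scaled CPM in both libraries labelled Bromo+/- and at 1433.0 and 1454.6 scaled CPM in the controls (log2 fold change -1.65, SE 0.05, adjusted p = 1.17e-87). SLC3A2 (chr11:62856102-62888875), the heavy chain 4F2hc that carries it to the membrane, was at 326 and 287 scaled CPM against 622 and 579 in the controls (-0.97, SE 0.05, adjusted p = 4.39e-45). Both fell without overlap, and under all 12 alternatives. The ratio of SLC7A5 to SLC3A2 in scaled RPKM was 1.6 and 1.7 in both libraries labelled Bromo+/-, against 2.51 and 2.74 in the controls, without overlap, a difference that was not tested.

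The other amino acid carriers among the members had smaller log2 fold changes. SLC38A2, the sodium-coupled carrier SNAT2 of small neutral amino acids, rose to 845 and 848 scaled CPM, against 695 and 696 in the controls (log2 fold change 0.28, SE 0.05, adjusted p = 2.64e-07). SLC1A5, the glutamine exchanger ASCT2, was at -0.17 (SE 0.05, adjusted p = 0.00248), a call that ended without Bromo+/- replicate 2 or control replicate 1 and with library size or upper quartile scaling (adjusted p between 4.58e-05 and 0.128 over the alternatives). SLC7A1, the carrier of cationic amino acids, did not pass (-0.08, SE 0.05) but did without Bromo+/- replicate 2 (-0.14, adjusted p = 0.0275, the lowest of its alternatives, which reached 0.914). CARS1, the cysteinyl-tRNA synthetase, averaged 81.7 ± 1.75 and 81.6 ± 2.59 scaled CPM (SD, n = 2 each). SLC7A11, which forms the cystine importer with the same heavy chain and was picked out after its values were seen, rose to 185 ± 5.37 CPM, against 116 ± 10.2 CPM in the controls (0.67, SE 0.06, adjusted p = 4.28e-23).

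**Figure D3:**
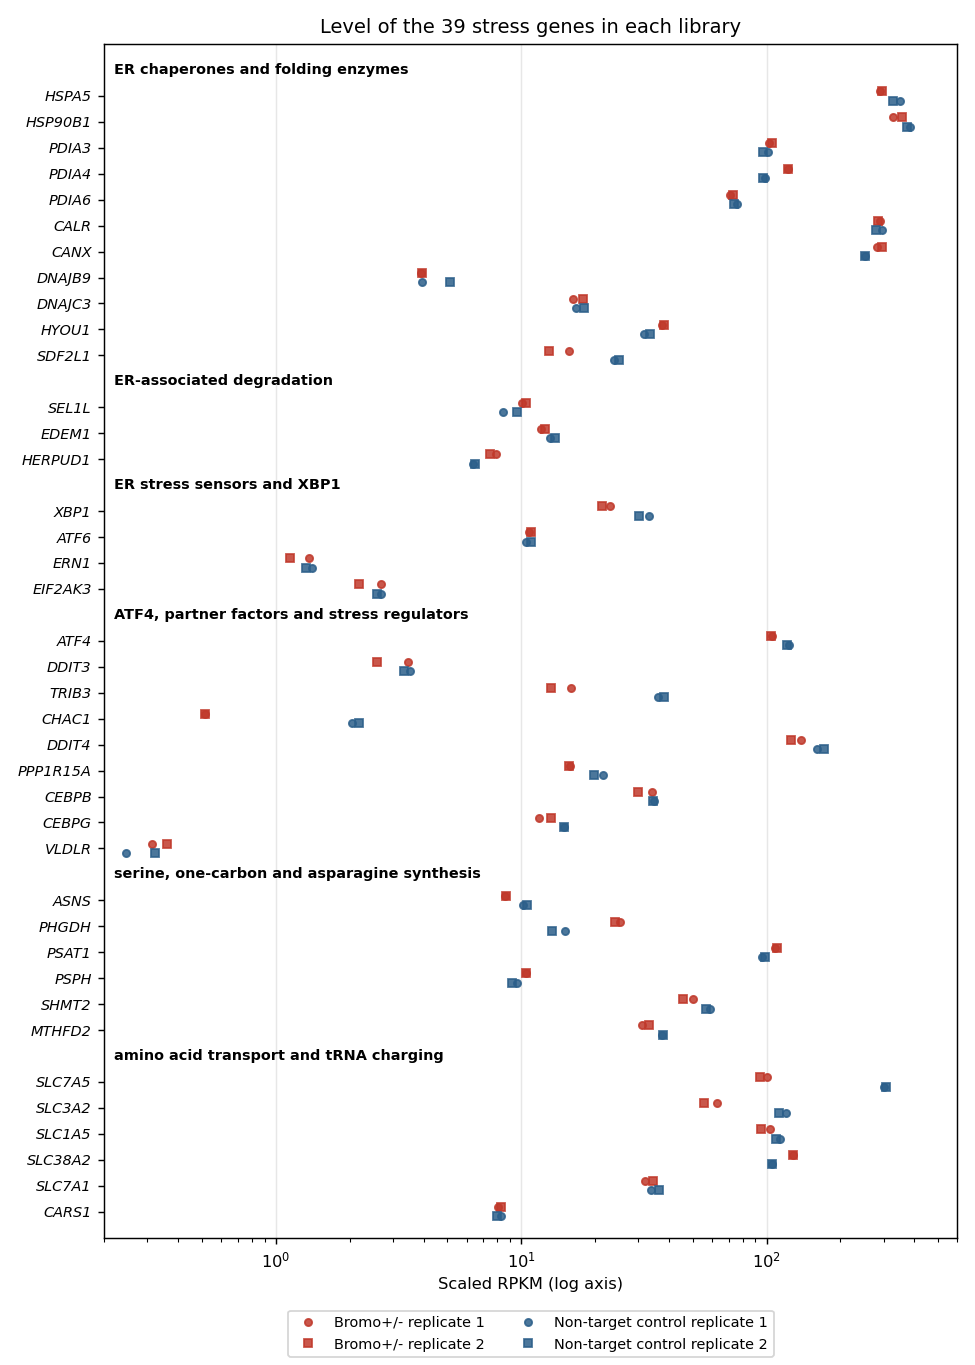
Scaled RPKM (scaled CPM per kilobase of exon, log axis) of the 39 members in each library, by role. In each row the libraries labelled Bromo+/- are above the Non-target control, circles are replicate 1 and squares replicate 2. HSP90B1 was the highest in each library, and SLC7A5 fell to a mean of 97.2, against 304 in the controls.

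In level per exon length the members spanned about 3 orders of magnitude. HSP90B1 was highest in every library (group means 341 scaled RPKM under the label Bromo+/- and 381 in the controls), and HSPA5 averaged 293 under that label and 338 in the controls. By group mean, SLC7A5 ranked 12 under the label Bromo+/- and 3 in the controls, and TRIB3 ranked 24 under that label and 17 in the controls. PHGDH ranked 20 under the label Bromo+/- and 26 in the controls. The Bromo+/- means of CALR, CANX and HSPA5 lay between 287 and 293 scaled RPKM, too close for an order to be read. The lowest members were VLDLR (0.337 against 0.284), CHAC1 (0.515 against 2.11) and ERN1 (1.25 against 1.37).

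Members with an ERSE, an ERSE-II or a CARE included genes that rose and genes that fell. Of the 6 members with an ERSE, CANX rose, HSPA5, HSP90B1 and XBP1 fell and PDIA6 and CALR did not pass, with a median log2 fold change of -0.11. Of the 3 with an ERSE-II, HERPUD1 and HYOU1 rose and SDF2L1 fell (median 0.22). Of the 2 with a UPRE, HYOU1 rose and CARS1 did not pass. Of the 8 with a CARE, 5 fell (ASNS, CEBPG, CHAC1, SLC1A5 and SLC3A2), HERPUD1 rose, and SLC7A1 and CARS1 did not pass (median -0.21). Over all genes tested 26.4% were higher and 27.1% lower, and a difference from these shares was not tested. The calls for HSPA5, HSP90B1, HYOU1, HERPUD1, ASNS, CEBPG and SLC1A5 ended under some alternatives, as given above. No window of SLC7A5, TRIB3 or PHGDH held any of the 4 motifs. These matches are letters in the reference genome, and binding was not measured.

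Of the 18 genes of the ER side 5 rose, 4 fell and 9 did not pass (median log2 fold change -0.05), and with library size or upper quartile scaling the split was 6 higher and 3 lower. The share that passed was 50%, near the 53.5% of all genes tested (26.4% higher and 27.1% lower). Of the 21 genes of the ATF4 side 3 rose (PHGDH, PSAT1 and SLC38A2), 12 fell and 6 did not pass (median -0.23), so that 71.4% passed. With library size or upper quartile scaling this side had 4 higher and 11 lower (medians -0.14 and -0.17). With the DESeq2 Wald test it had 2 higher and 10 lower. The difference between the sides was not tested.

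Other genes of the same pathways were counted from 5 lists, of whose tested genes 50% to 76.9% passed, against 53.5% of all genes tested. Of 54 tested genes in a list mainly of ER folding, translocation and degradation outside the members 20 rose, 11 fell and 23 did not pass (median 0.06, median size 0.16). The list also held NF-Y subunits, factors of the ATF6 and CREB3 families, the proteases of ATF6 and genes of transport between ER and Golgi. Of these NFYA, MBTPS1, MBTPS2, SEC24D, KDELR1 and KDELR3 were among the rises. NFYB, NFYC, ATF6B, CREB3, CREB3L2, KDELR2 and BET1 did not pass, and CREB3L1 had too few counts to be tested. ERO1A, an oxidase that feeds disulfide isomerases, fell by 0.53, while its relative ERO1B rose by 1.56 (5.74 ± 0.621 against 1.96 ± 0.201 CPM, SD, n = 2 each). MBTPS1, the protease that makes the first cut in ATF6, rose by 0.56 and HSPA13, an HSP70 of microsomes, by 0.55. With library size alone the split of this list was 26 higher and 4 lower, and with upper quartile scaling 25 higher and 8 lower. Without control replicate 1 it was 15 higher and 8 lower, without control replicate 2 it was 13 higher and 6 lower, and with the DESeq2 Wald test 15 higher and 7 lower.

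Of 26 tested other ATF4 targets 11 rose and 9 fell (median 0.10), with a median size of 0.49, and FGF21 was at 0 in all libraries. With the DESeq2 Wald test 7 rose and 8 fell. ALDH1L2, a mitochondrial folate enzyme, was covered by 3 and 6 reads in libraries labelled Bromo+/- and by 104 and 115 reads in the controls (log2 fold change -4.66, SE 0.31). Its exons overlap NOPCHAP1 on the opposite strand, so its level is uncertain. SLC6A9, the glycine carrier, fell by 1.72 (SE 0.14; CCDC24 overlaps it on the opposite strand) and VEGFA, an angiogenic factor, by 0.84 (SE 0.07). STC2, a secreted glycoprotein, averaged 449 ± 3.62 CPM against 165 ± 2.74 CPM in the controls (SD, n = 2 each; log2 fold change 1.45, SE 0.05).

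**Figure D4:**
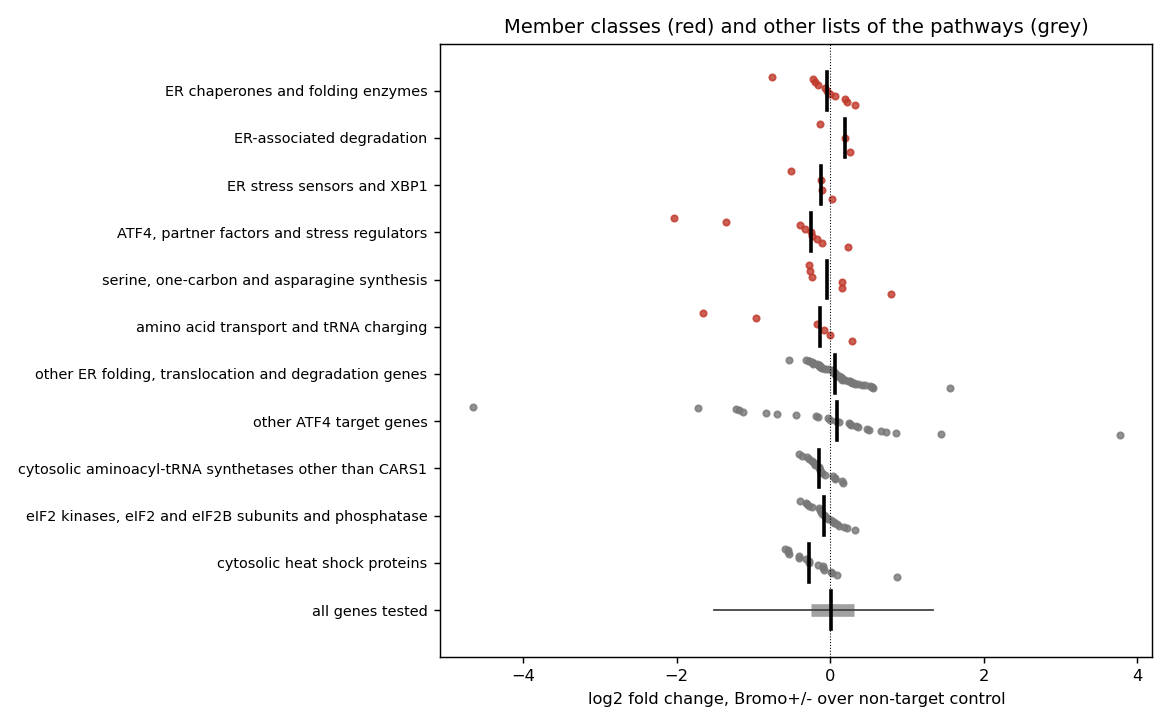
Log2 fold changes, libraries labelled Bromo+/- over Non-target control, of single genes (points) in the 6 member classes (red) and 5 other lists (grey), with each median as a black line. The bottom row gives all genes tested, the thick bar from the 25th to the 75th percentile (-0.25 to 0.31) and the thin line from the 5th to the 95th (-1.51 to 1.34).

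For tRNA charging and eIF2 the median sizes of the change were 0.15 and 0.12. Of 19 cytosolic aminoacyl-tRNA synthetases other than CARS1, which ATF4 can induce as a group, 11 fell and 2 rose (median -0.14), led by KARS1 at -0.41, VARS1 at -0.37, SARS1 at -0.30 and MARS1 at -0.28. With library size alone this split was 5 higher and 6 lower, with upper quartile scaling 3 higher and 8 lower. Without control replicate 1 it was 1 higher and 7 lower, and without control replicate 2 none were higher and 8 lower. Another list held eIF2, its kinases, its exchange factor eIF2B and its phosphatase. It also held the regulators GCN1, IMPACT and NCK1 and the separate initiation factors EIF2A, EIF2D, DENR and MCTS1. Of its 22 genes 8 fell, GCN1 and EIF2A among them, and 3 rose, IMPACT among them (median -0.07). EIF2S2 was at -0.30, EIF2S1 at -0.24 and the phosphatase subunit PPP1CB at -0.39. EIF2AK1, the kinase that answers to heme and to mitochondrial stress, rose by 0.33. With library size alone this list had 6 higher and 5 lower, with upper quartile scaling 5 higher and 5 lower. Without either control replicate, or with the DESeq2 Wald test, it had 1 higher and 5 lower, and with no filter 1 higher and 7 lower.

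Cytosolic heat shock proteins, which answer to another stress factor, HSF1, made up most of the last list. It also held HSF1 itself and the mitochondrial chaperonins HSPD1 and HSPE1, which did not pass. Of 17 tested genes of this list 8 fell and 1 rose (median -0.27). HSPB1 fell by 0.59, BAG3 by 0.55 and DNAJB1 by 0.55, and DNAJB4 rose by 0.87. The lower count was also 8 with library size or upper quartile scaling, with 3 and 2 genes higher. With the DESeq2 Wald test 9 fell and 1 rose, and with the replicate number as a block 9 fell and 2 rose. Without control replicate 2 the median was -0.20. Among the falls, HSPA1A lay between -0.59 and -0.19 over the alternatives, and HSPA1B between -0.41 and -0.20. HSPB8 was at 0 in all libraries. Each of the 20 genes named by adjusted p from these 5 lists passed under all 12 alternatives.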

How the data were processed

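Counts per Ensembl gene were deposited by the authors as raw counts. The tools named in the submitters' processing notes are STAR, with no version, and featureCounts 1.5.2, with GRCh38 as the build. Strand setting, annotation release and treatment of multimapping reads were not given in the sources used here. The annotated pseudogene copies of members held at most 10 counts in a library. Columns were matched to samples by name. Those named Br were taken as Bromo+/- and those named WT as Non-target control, a reading of the names that no label states.

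Genes kept by filterByExpr (13179) were scaled by trimmed mean of M values (TMM) and compared with the robust quasi-likelihood test of edgeR 4.0.16 (R 4.3.3) with Benjamini-Hochberg adjustment over all genes. The SE of a log2 fold change is its absolute value divided by the square root of the F statistic of that test. It is thus derived from the test and not from the spread of replicates directly. Scaled CPM use the TMM library sizes, and scaled RPKM divide them by exon length. Floors were 0.244 to 0.286 CPM for 3 counts in a library. Correlation of log2 CPM within groups was 0.995 across genes, and the spread within groups exceeded sampling noise (chi-square per degree of freedom 1.61 and 2.59), so all libraries were kept as separate replicates. No label says that they come from separate cultures, so a p-value here reflects only their own spread, possibly technical.

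The members and all lists were chosen with earlier results of these data known. Values by library are given for members past the threshold with an absolute log2 fold change of at least 0.5 and for HSPA5, XBP1, ATF4, DDIT3 and EIF2AK3, and for some others chosen after their values were seen. Up to 4 genes per other list are named by smallest adjusted p at an average log2 CPM of at least 2. The tests were checked on simulated data. Alternatives were DESeq2 size factors, upper quartile scaling, library size alone, other filters, the DESeq2 1.42.0 Wald test, no robust estimation, the replicate number as a block, and each library left out.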

Additional observations from a re-analysis of the deposited data

How the results depend on the processing

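The 7 members with an absolute log2 fold change of at least 0.5 kept their direction and their call under all 12 alternatives, and of 468 member results under alternatives 416 kept both direction and side of the threshold. With the DESeq2 Wald test 4470 genes passed, 1948 of them higher, with 5 members higher and 3 of them on the ER side. Leaving out 1 library gave 4 to 7 members higher and 2 to 4 genes of the ER side higher, the lowest without control replicate 1. Members that did not pass crossed 0 as follows. CALR was at -0.02 (DESeq2 Wald test), -0.00 (DESeq2 size factors) and -0.01 (no filter), CARS1 at -0.01, -0.00 and -0.01 in the same order, DNAJC3 at 0.05 (library size alone) and 0.02 (upper quartile), PDIA6 at 0.03 and 0.00 in that order, and SLC7A1 at 0.01 (library size alone). With 1 library left out the ranges were -0.01 to 0.05 for ATF6, -0.05 to 0.03 for CALR, -0.04 to 0.03 for CARS1, -0.41 to 0.01 for DDIT3, -0.11 to 0.03 for DNAJC3, -0.27 to 0.02 for EIF2AK3, -0.27 to 0.00 for ERN1. The cause was not tested. The replicate numbers share no stated origin, and deviations of same-numbered libraries correlated at 0.0484, so they were not taken as pairs. With the replicate number as a block 7271 genes passed, with 8 members higher and 16 lower, and no member call changed. With 1 library left out, the lone library of a group is assumed to vary like the other group. Depth limits CHAC1, DDIT3, VLDLR, DNAJB9, ERN1 and EIF2AK3, whose counts were lowest.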
